A study of Mus musculus with 12 samples.

Results

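*Nt5e*, *Entpd1*, *Adora2a*, *Adora2b*, *Adora3*, *P2rx4*, *P2rx7*, *P2ry6*, *Ada* and *Adk* encode enzymes and receptors that handle ATP and adenosine around the cell. The 10 genes were listed by symbol as a group around *Nt5e*, chosen by the rise of its normalized counts after fenoterol in these same libraries, so the values of *Nt5e* are given as a description with no test. They are 10 of the 53379 genes in the count table. Of the 10, 9 were among the 12386 genes that passed the filter on low counts, and *Adora2a* was not. *Nt5e* and *Adora3* passed only through the fenoterol-treated libraries, since their untreated counts alone lay below it.

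The libraries came from bone marrow-derived macrophages (BMDMs) of 4 C57Bl/6J mice, male and used at 8 to 20 weeks of age according to the methods, with no other genotype. Marrow cells were grown for 1 week in medium conditioned by L929 cells, a fibroblast line that secretes the macrophage growth factor M-CSF, and the cells of each mouse were then left untreated or received 1 μM fenoterol for 1 h or 4 h. Fenoterol is an agonist of the β2-adrenergic receptor (B2AR), a receptor that raises intracellular cAMP, and the comparisons ask how its activation acutely changes the macrophage transcriptome. This gave 3 groups of 4 libraries, and the untreated cells received no vehicle that the labels name. The medium was not changed for the stimulation, so conditioned medium was present in all 3 groups, and a single dose was used.

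Cells release ATP through channels and on injury, and ATP outside the cell acts on P2X channels and P2Y receptors. The ectoenzyme CD39, encoded by *Entpd1*, removes phosphates from ATP and ADP to leave AMP, and CD73, encoded by *Nt5e*, converts AMP to adenosine. Adenosine acts on P1 receptors, of which the products of *Adora2a* and *Adora2b* raise cAMP and that of *Adora3* lowers it, and it is removed by adenosine deaminase (*Ada*) or, inside the cell, by adenosine kinase (*Adk*). In macrophages this chain is known for turning a pro-inflammatory signal, ATP, into an anti-inflammatory one, adenosine.

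The promoters of *Nt5e* and *Adora2b*, the genes of the 10 that differed most from untreated BMDMs, are shown beside the first promoter of *Entpd1*, which rose less, and the first of *P2rx7*, which fell, so that their start regions can be compared. They are RefSeq sequences of GRCm38.p6, each 300 bases from 250 before the annotated start of transcription to 50 after, all on the + strand. They lie at chr9:88327359-88327658 for *Nt5e*, chr11:62248734-62249033 for *Adora2b*, chr19:40612116-40612415 for *Entpd1* and chr5:122643677-122643976 for *P2rx7*. Capitals mark any match, on either strand, to the motifs CRE (TGACGTCA), its shorter core TGACG, which also lies within every CRE, the AP-1 site TGACTCA, the NBRE (AAAGGTCA) and the GC box GGGCGG.
Nt5e: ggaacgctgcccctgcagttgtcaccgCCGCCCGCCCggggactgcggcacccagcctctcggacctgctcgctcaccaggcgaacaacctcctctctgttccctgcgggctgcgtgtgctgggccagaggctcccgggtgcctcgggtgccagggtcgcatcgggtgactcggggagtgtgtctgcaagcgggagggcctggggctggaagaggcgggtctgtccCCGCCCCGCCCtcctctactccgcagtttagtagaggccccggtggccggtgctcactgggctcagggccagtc
Adora2b: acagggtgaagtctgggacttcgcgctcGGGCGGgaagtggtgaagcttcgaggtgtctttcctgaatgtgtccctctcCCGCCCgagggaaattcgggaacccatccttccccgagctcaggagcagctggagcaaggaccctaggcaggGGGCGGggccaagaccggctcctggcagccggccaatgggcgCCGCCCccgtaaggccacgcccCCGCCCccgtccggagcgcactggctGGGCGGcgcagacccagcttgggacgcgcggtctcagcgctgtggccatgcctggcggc
Entpd1: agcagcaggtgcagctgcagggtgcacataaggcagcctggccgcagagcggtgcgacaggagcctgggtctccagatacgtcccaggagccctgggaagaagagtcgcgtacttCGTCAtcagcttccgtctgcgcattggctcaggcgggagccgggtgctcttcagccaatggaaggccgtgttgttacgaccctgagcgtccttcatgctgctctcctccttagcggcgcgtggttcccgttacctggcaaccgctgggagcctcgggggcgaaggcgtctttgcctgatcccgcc
P2rx7: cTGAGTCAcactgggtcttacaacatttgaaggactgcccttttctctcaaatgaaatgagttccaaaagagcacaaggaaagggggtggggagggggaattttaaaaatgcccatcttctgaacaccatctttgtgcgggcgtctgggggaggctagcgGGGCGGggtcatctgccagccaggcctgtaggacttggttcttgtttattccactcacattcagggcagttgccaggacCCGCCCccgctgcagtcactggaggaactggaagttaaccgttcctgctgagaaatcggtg

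The CRE is the site bound by CREB, the transcription factor that cAMP signaling activates, and the NBRE is bound by receptors of the Nr4a family. The promoter of *Nt5e* had 71% G and C and held 4 GC boxes, which began 19, 24, 219 and 223 bases before the start site. That of *Adora2b* had 70% G and C and held 6 GC boxes. Neither held any of the other motifs. The *Nt5e* window lies wholly after the start of the gene in GENCODE, 88327197, so bases before that start were not searched. The *Entpd1* promoter held 1 TGACG, 135 bases before the start site, and the first promoter of *P2rx7* held 1 AP-1 site, 249 bases before it, with 2 GC boxes, whereas the second promoter listed for *P2rx7* held 0 of the 5 motifs. Over the 11 promoters listed for 8 of the 10 genes, 0 held a CRE, 0 an NBRE, 4 a TGACG, 2 an AP-1 site and 7 a GC box. Of all 32851 mouse promoters of the same length, 1.79% held a CRE, 1.51% an NBRE, 20.8% a TGACG, 5.20% an AP-1 site and 35.7% a GC box. These matches describe the letters of the window only, and binding was not measured.

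*Nt5e* (ENSMUSG00000032420, chromosome 9, 88327197 to 88372092, + strand) was close to undetected in untreated BMDMs and abundant enough to be counted in every library after fenoterol. The raw counts of mice 1 to 4 were 2, 1, 4 and 0 in untreated cells, 106, 85, 50 and 54 at 1 h and 345, 652, 441 and 540 at 4 h. Every 1 h library lay above every untreated library, and every 4 h library lay above every 1 h library. Normalized to the mean library size, the counts were 1.73 ± 1.60 (SD, n = 4) in untreated cells, 77.3 ± 29.6 at 1 h and 467 ± 145 at 4 h. At 4 h the other 3 mice lay between 360 and 421 normalized counts, and mouse 2 at 681. Because the untreated total was 7 counts, the size of the rise is known only within wide limits. The ratio of rates was 42.3 at 1 h (exact 95% interval 20.3 to 106) and 255 at 4 h (124 to 636), and between the time points it was 6.04 (5.34 to 6.85). These intervals cover counting error only. The fitted log2 fold changes, 5.32 at 1 h and 7.92 at 4 h, became 6.03 and 8.61 without the untreated library of mouse 3, which held 4 of the 7 counts. In each of the 4 mice *Nt5e* was higher at 4 h than at 1 h, by 1.71 to 3.03 on the scale of log2(normalized count + 1). Its exons share 0.128% of their stretches of 50 bases with other genes.

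*Entpd1* (ENSMUSG00000048120, chromosome 19, 40612366 to 40741602, + strand), whose product acts one step ahead of CD73, was already abundant in untreated BMDMs and rose moderately. In mice 1 to 4 the normalized counts were 8796, 9020, 8488 and 8780 in untreated cells, 9977, 11040, 9358 and 9805 at 1 h, and 10519, 12567, 11340 and 11265 at 4 h. The untreated values did not overlap those of either time point, whereas the 1 h and 4 h values overlapped, and *Entpd1* was higher at 4 h than at 1 h in each mouse. The log2 fold change was 0.20 at 1 h (SE 0.062, adjusted p = 0.0391 in edgeR's quasi-likelihood test), a rise of 14.5%, and 0.38 at 4 h (SE 0.062, adjusted p = 0.000187), a rise of 30.2%. Between 1 h and 4 h it was 0.19 (SE 0.062, adjusted p = 0.0295 in the same test). Here and below the Benjamini-Hochberg adjustment ran over all 12386 genes tested, both time points are compared with the same 4 untreated libraries, and the p-values measure the spread between the cultures of 4 mice. The call at 1 h was lost when libraries were scaled by size only (0.13, adjusted p = 0.154) and without the filter on low counts (0.20, adjusted p = 0.0594). That between 1 h and 4 h was lost with only the 2 groups compared (adjusted p = 0.0601) and without any 1 of 5 libraries (adjusted p = 0.0531 to 0.131). The 1 h call was also lost when any 1 of 7 libraries was left out, which were the 4 untreated ones and those of mice 1, 2 and 4 at 1 h (adjusted p = 0.0535 to 0.127), while the call at 4 h held in every alternative that was run. With the mouse as a block, the calls at 1 h (adjusted p = 0.00441) and between 1 h and 4 h (adjusted p = 0.00315 in edgeR's quasi-likelihood test) were kept.

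**Figure D1:**
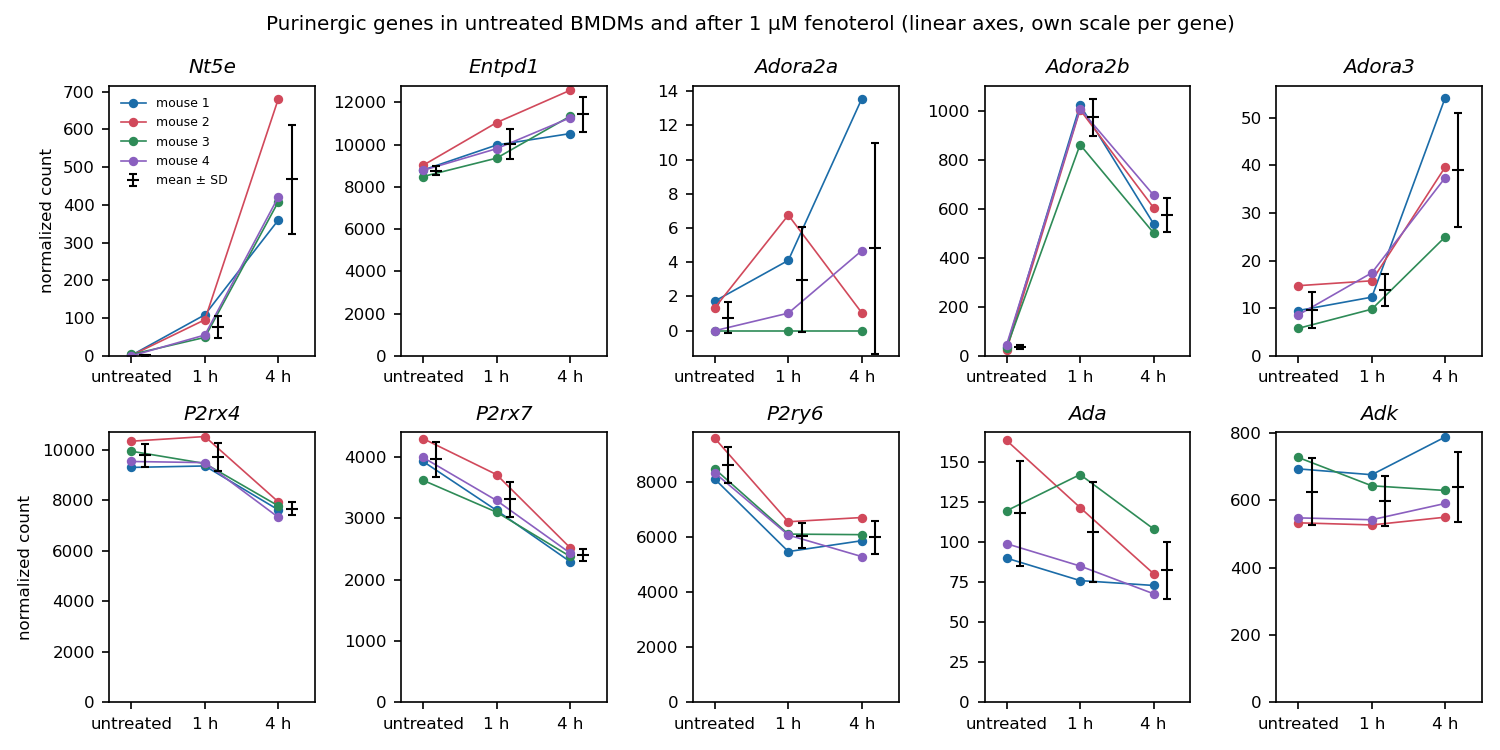
Normalized counts (y axis, linear, own scale for each gene) of the 10 purinergic genes in untreated BMDMs and after 1 h and 4 h of 1 μM fenoterol (x axis); coloured points joined by lines are the 4 mice, and black bars are the mean ± SD (n = 4). *Nt5e* goes from at most 3.86 to at least 360 at 4 h in each mouse, *Adora2b* peaks at 1 h (861 to 1023), and *P2rx7* falls stepwise to 2293 to 2519.

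The adenosine receptors differed from each other in level and in time course. *Adora2b* (ENSMUSG00000018500, chromosome 11, 62248984 to 62266453, + strand), a receptor known for its low affinity for adenosine, had raw counts of 42, 18, 35 and 42 in the untreated libraries of mice 1 to 4, 995, 891, 878 and 982 at 1 h and 517, 579, 542 and 841 at 4 h. The 3 groups did not overlap after normalization: the counts were 34.9 ± 8.68 (SD, n = 4) in untreated cells, 974 ± 75.4 at 1 h and 575 ± 68.4 at 4 h, so that the level was highest at 1 h. *Adora2b* rose 27.5-fold at 1 h (log2 fold change 4.78, SE 0.14, adjusted p = 5.52e-12 in edgeR's quasi-likelihood test) and was 16.2-fold higher at 4 h (4.02, SE 0.14, adjusted p = 4.09e-11). It ranked 15 at 1 h and 23 at 4 h by p-value among the genes tested. From 1 h to 4 h it fell by 40.8% (log2 fold change -0.76, SE 0.10, adjusted p = 4.30e-05 in the same test), in all 4 mice, while *Nt5e* was higher at 4 h than at 1 h in all 4 mice.

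*Adora3* (ENSMUSG00000000562, chromosome 3, 105870858 to 105908926, + strand), a receptor that couples to inhibitory G proteins, was detected at low counts and rose later. Raw counts of mice 1 to 4 were 11, 11, 6 and 8 in untreated cells, 12, 14, 10 and 17 at 1 h and 52, 38, 27 and 48 at 4 h. The untreated and 1 h values overlapped, and the 4 h values lay above both. The log2 fold change at 1 h was 0.54 and did not pass the test (SE 0.36, adjusted p = 0.349 in edgeR's quasi-likelihood test). At 4 h it was 2.03 (SE 0.32, adjusted p = 0.000139), and between the time points it was 1.49 (SE 0.30, adjusted p = 0.00138 in the same test). The gene passed the filter on low counts only with treated libraries included, where it is higher, so these p-values are not independent of its level in them. In the fit of all genes without the filter on low counts the changes were 2.04 (adjusted p = 2.55e-05) and 1.49 (adjusted p = 0.000918 in edgeR's quasi-likelihood test). *Tmigd3*, a gene on the same strand, shares 779 bases with *Adora3*, which is 20.9% of the exon bases of *Adora3*. Reads there may have been counted for neither gene, and *Tmigd3* itself had 10, 18 and 19 counts in all in the untreated, 1 h and 4 h groups.

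*Adora2a* (ENSMUSG00000020178, chromosome 10, 75316877 to 75334784, + strand) encodes a receptor of high affinity that is known from many immune cells, and it stayed near the limit of detection. Its raw counts in mice 1 to 4 were 2, 1, 0 and 0 in untreated cells, 4, 6, 0 and 1 at 1 h and 13, 1, 0 and 6 at 4 h. The groups overlapped, with 13 counts in 1 library of mouse 1 as the highest value and 0 counts in every library of mouse 3. Over the 4 libraries of a group the ratio of rates to untreated BMDMs, from a total of 3 counts, was 3.68 at 1 h (exact 95% interval 0.971 to 20.5) and 6.02 at 4 h (1.79 to 31.6), intervals that leave out the spread between mice. *Adora1*, the remaining P1 receptor gene, had 0 counts in all 12 libraries, and a count of 0 allows up to 3 counts per library.

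Among the receptors for nucleotides, the 3 genes studied were abundant and went down, and their time courses were not tested against each other. *P2ry6* (ENSMUSG00000048779, chromosome 7, 100937630 to 100974649, - strand) encodes a receptor for UDP, and its normalized counts in mice 1 to 4 were 8118, 9597, 8485 and 8341 in untreated cells, 5484, 6568, 6119 and 6083 at 1 h and 5878, 6722, 6098 and 5301 at 4 h. It had thus fallen by 1 h, and the 1 h and 4 h values overlapped. The log2 fold changes were -0.51 at 1 h (SE 0.078, adjusted p = 0.000231 in edgeR's quasi-likelihood test) and -0.53 at 4 h (SE 0.078, adjusted p = 7.54e-05), or decreases of about 30% at both times. Between the time points the log2 fold change was -0.02 (SE 0.078, adjusted p = 0.906 in the same test), and its sign changed when libraries were scaled by size only.

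*P2rx7* (ENSMUSG00000029468, chromosome 5, 122643911 to 122691432, + strand) encodes an ATP-gated channel that is known for triggering release of interleukin-1β, and it fell in steps. Its normalized counts in mice 1 to 4 were 3923, 4295, 3616 and 3988 in untreated cells, 3127, 3709, 3098 and 3288 at 1 h and 2293, 2519, 2377 and 2433 at 4 h. The untreated and 1 h ranges overlapped only through mouse 2 at 1 h, and the 4 h values lay below both. At 1 h it fell by 16.4% (log2 fold change -0.26, SE 0.066, adjusted p = 0.0121 in edgeR's quasi-likelihood test). At 4 h it fell by 39.2% from the untreated level (-0.72, SE 0.067, adjusted p = 7.70e-07 in the same test). From 1 h to 4 h the log2 fold change was -0.46 (SE 0.067, adjusted p = 8.52e-05 in the same test).

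*P2rx4* (ENSMUSG00000029470, chromosome 5, 122707544 to 122729738, + strand), a gene for another ATP-gated channel that lies downstream of *P2rx7* on the same strand, had normalized counts of 9303, 10340, 9943 and 9537 in the untreated libraries of mice 1 to 4, 9360, 10525, 9457 and 9493 at 1 h, and 7622, 7938, 7780 and 7328 at 4 h. The 1 h values lay within or close to the untreated range, and the 4 h values lay below both. The log2 fold change was -0.01 at 1 h (SE 0.053, adjusted p = 0.930 in edgeR's quasi-likelihood test), a value whose sign changed with the library left out. At 4 h *P2rx4* had fallen by 21.6% (log2 fold change -0.35, SE 0.054, adjusted p = 9.63e-05), and from 1 h to 4 h the change was -0.34 (SE 0.054, adjusted p = 0.000163 in the same test).

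Neither gene for the removal of adenosine passed the test at any time in the fit without a block. *Adk* (ENSMUSG00000039197, chromosome 14, 21052574 to 21448569, + strand), which encodes the kinase that returns adenosine to AMP, had normalized counts of 626 ± 99.2 (SD, n = 4) without treatment, 597 ± 73.7 at 1 h and 640 ± 104 at 4 h. The groups overlapped, and the log2 fold changes were -0.07 at 1 h (SE 0.13, adjusted p = 0.780 in edgeR's quasi-likelihood test) and 0.03 at 4 h (SE 0.13, adjusted p = 0.896). *Ada* (ENSMUSG00000017697, chromosome 2, 163726584 to 163750239, - strand), which encodes the deaminase that turns adenosine into inosine, had normalized counts of 90.1, 164, 120 and 99.1 in the untreated libraries of mice 1 to 4, 76.1, 122, 142 and 85.1 at 1 h, and 73.0, 80.4, 108 and 67.8 at 4 h. The groups overlapped, although each mouse had its lowest value at 4 h. The log2 fold change of *Ada* was -0.14 at 1 h (SE 0.23, adjusted p = 0.756 in edgeR's quasi-likelihood test) and -0.51 at 4 h (SE 0.24, adjusted p = 0.103). With the mouse as a block the value at 4 h was -0.50 and passed the test (adjusted p = 0.0105), and it also did so without mouse 3 at 4 h (-0.67, adjusted p = 0.0490).

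**Figure D2:**
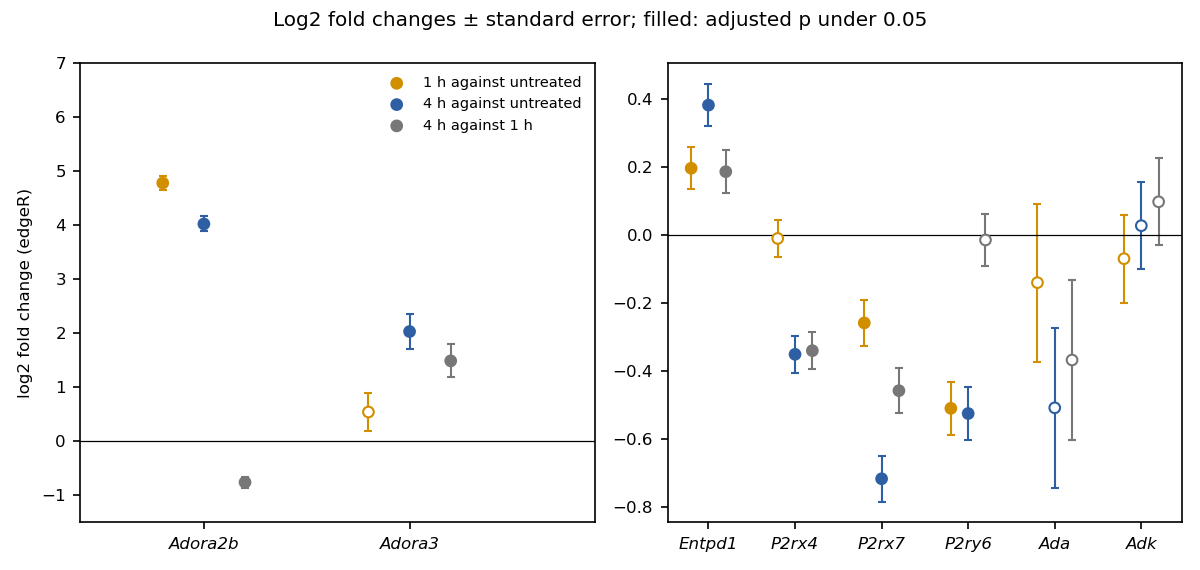
Log2 fold changes from the edgeR fit (y axis; points, with the standard error as bars) of the 8 purinergic genes other than *Nt5e* that passed the filter on low counts, for 1 h against untreated (orange), 4 h against untreated (blue) and 4 h against 1 h (grey); filled points have an adjusted p under 0.05, and the left and right panels have different y scales. *Adora2b* stands at 4.78 and 4.02 and then at -0.76 between the time points, *Adora3* is called at 4 h (2.03) and not at 1 h (0.54), and *P2rx4*, *P2rx7* and *P2ry6* are below 0 at 4 h. *Adora3* passed the filter on low counts only with treated libraries included.

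Counted together, 8 of the 9 genes other than *Nt5e* were tested. At 1 h, 4 of the 8 passed edgeR's quasi-likelihood test at an adjusted p under 0.05, against 20.1% of all genes tested. *Entpd1* and *Adora2b* were higher, as were 10% of all genes, *P2rx7* and *P2ry6* were lower, as were 10.1%, and for 3 of them the treated and untreated values did not overlap, as was the case for 23% of all genes. At 4 h, 6 of the 8 passed, 3 higher (*Entpd1*, *Adora2b*, *Adora3*; 19.7% of all genes) and 3 lower (*P2rx4*, *P2rx7*, *P2ry6*; 20.4%), against 40% of all genes in either direction, and none of the 6 overlapped with untreated BMDMs (37.6% of all genes). Between 1 h and 4 h, 5 of the 8 passed, 2 higher (18.7% of all genes) and 3 lower (19.8%), against 38.5% of all genes in either direction, and 4 did not overlap (35.9%). Since the group was assembled around a gene that rose in these same comparisons, and *Adora3* passed the filter only with treated libraries included, nothing is read from these shares. Among the 7 genes that passed the filter by their untreated counts, 4 were called at 1 h, 5 at 4 h and 4 between the time points. Of the called genes, only *Adora2b* had changed 2-fold or more at 1 h, *Adora2b* and *Adora3* had at 4 h, and *Adora3* had between the time points, as had 3.92%, 8.1% and 6.34% of all genes.

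To compare levels between genes, RPKM values (counts scaled for exon length and library size) were computed. In untreated BMDMs the order was *P2ry6* (152 ± 11.6 RPKM, SD, n = 4), *Entpd1* (80.1 ± 1.99), *P2rx4* (70.9 ± 3.31) and *P2rx7* (33.8 ± 2.37), followed by *Adk* (3.74 ± 0.592), *Ada* (3.00 ± 0.833), *Adora2b* (0.963 ± 0.240), *Adora3* (0.132 ± 0.0511), *Adora2a* (0.0128 ± 0.0150) and *Nt5e* (0.0103 ± 0.00947). Neighbors in this order did not overlap, except *Adk* with *Ada* and *Adora2a* with *Nt5e*. RPKM depends on the length used: with that of the longest transcript, 21 of the 30 group means moved by more than 1 SD, among them *P2rx4* in untreated libraries (128 RPKM) and *Nt5e* (0.0221). *P2rx4* then preceded *Entpd1*, at 1 h and without treatment, and *Nt5e* preceded *Adora2a* without treatment, where *Adk* and *Ada* no longer overlapped. At 1 h the values of *P2rx4* (122 to 138 RPKM) and *Entpd1* (113 to 133 RPKM) overlapped.

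*Adora2b* and *Nt5e* moved up in this order. At 1 h, *Adora2b* reached 26.9 ± 2.08 RPKM and overlapped with *P2rx7* (28.2 ± 2.41), and at 4 h it stood at 15.9 ± 1.89, below *P2rx7* (20.5 ± 0.813). *Nt5e* reached 0.458 ± 0.175 RPKM at 1 h and 2.77 ± 0.856 at 4 h, where it overlapped with *Adk* (3.82 ± 0.623) and *Ada* (2.10 ± 0.459). With the longest transcript it was 5.96 ± 1.84 RPKM at 4 h, which overlapped with *Adk* (7.68 ± 1.25) and not with *Ada* (2.49 ± 0.544), and at 1 h the overlaps of *Adora2b* with *P2rx7*, of *Entpd1* with *P2ry6* and of *Adk* with *Ada* were lost. *Entpd1* (104 ± 7.74) overlapped with *P2ry6* (106 ± 10.4) at 4 h, as it did at 1 h (91.7 ± 6.50 and 107 ± 7.85). At both times *Adora2b* had the highest level of the P1 receptors, with *Adora3* at 0.189 ± 0.0468 and 0.534 ± 0.164 RPKM and *Adora2a* at 0.0495 ± 0.0511 and 0.0802 ± 0.102.

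**Figure D3:**
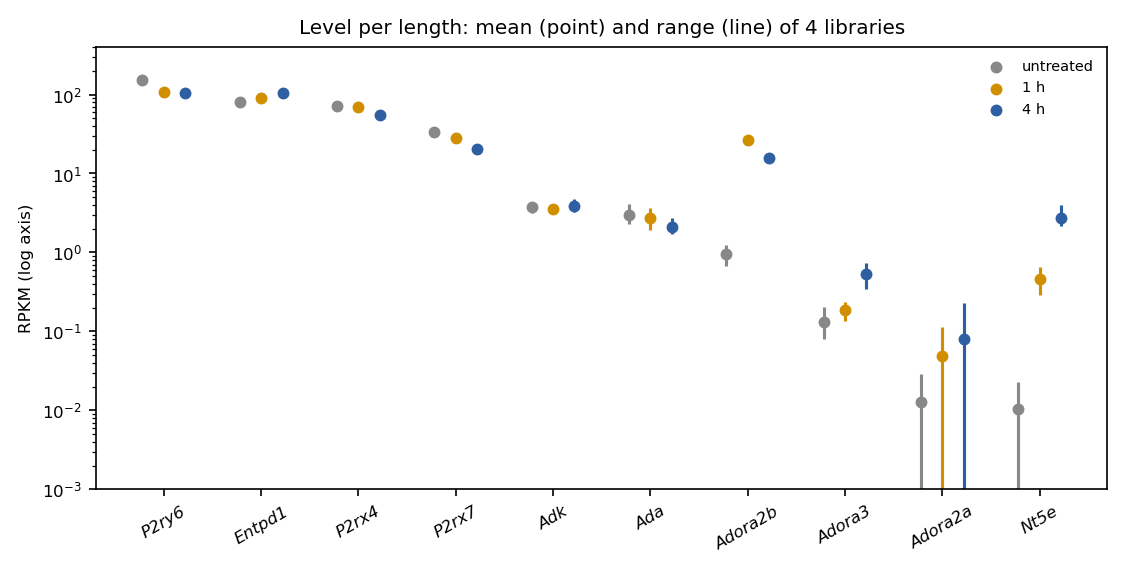
RPKM (y axis, log scale) of the 10 purinergic genes, ordered by their untreated level (x axis), untreated (grey), at 1 h (orange) and at 4 h (blue); points are means and lines the range of 4 libraries, and lines that reach the lower edge include a library with 0 counts. *P2ry6*, *Entpd1*, *P2rx4* and *P2rx7* stay above 19 RPKM in every library, *Adora2b* moves from 0.963 to 26.9 and 15.9, and *Nt5e* moves from 0.0103 to 0.458 and 2.77.

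Over the 12 libraries, the 5 genes whose log2(normalized count + 1) followed that of *Nt5e* most closely were *Tgm2* (Pearson's r = 0.989), *Ywhaz* (0.989), *Ctla2a* (0.989), *Sdhaf2* (0.988) and *Gcsh* (0.985). These values describe a pattern that the 3 groups set, and the libraries share mice. *Tgm2*, which encodes transglutaminase 2, had 1316 ± 202 normalized counts (SD, n = 4) in untreated cells, 9695 ± 986 at 1 h and 30735 ± 1381 at 4 h. *Ctla2a* went from 55.9 ± 12.2 to 315 ± 77.2 and 953 ± 197, and *Gcsh*, which encodes a subunit of the glycine cleavage system, from 371 ± 35.9 to 2148 ± 252 and 3495 ± 287. *Ywhaz* and *Sdhaf2* had the same order of groups with smaller steps, *Ywhaz* going from 1661 ± 121 to 2169 ± 96.6 and 2456 ± 57.4. Of the purinergic genes, r with *Nt5e* was 0.901 for *Entpd1*, 0.858 for *Adora2b* and 0.794 for *Adora3*, 0.0776 for *Adk*, and -0.503 for *Ada*, -0.704 for *P2rx4*, -0.851 for *P2ry6* and -0.895 for *P2rx7*.

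The rest of the pathway was taken from 7 lists of 80 further genes, of which 52 were tested and 48 passed the filter by their untreated counts alone. At 1 h, 12 of the 52 passed, 6 higher and 6 lower (23.1%, against 20.1% of all genes), with a median log2 fold change of 0.01, against -0.0049 over all genes. At 4 h, 29 of the 52 passed, 11 higher and 18 lower (55.8%, against 40%), with a median of -0.17, against 0.0042. Between the time points, 27 passed, 7 higher and 20 lower (51.9%, against 38.5%), with a median of -0.21, against 0.0074. The called genes named from these lists are the up to 3 largest changes per list and time that had the same direction in all 4 mice. *Adora1*, *Entpd2*, *Entpd3* and *Entpd8*, which were not tested, are named for their low counts.

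In the list of other P1 and P2 receptors, 2 of the 6 genes tested passed at 1 h and 3 at 4 h, each of them lower, as were 10.1% and 20.4% of all genes. They were the receptors for ADP: *P2ry1* went from 137 ± 11.6 normalized counts (SD, n = 4) to 38.8 ± 11.1 at 1 h and 13.02 ± 4.38 at 4 h, with log2 fold changes of -1.82 and -3.38. *P2ry13* went from 332 ± 37.5 to 217 ± 28.3 and 62.3 ± 10.9, with log2 fold changes of -0.61 and -2.41. *P2ry12* had 311 ± 31.5 and 304 ± 28.5 counts in untreated and 1 h BMDMs and 97.0 ± 8.66 at 4 h, where its log2 fold change was -1.67. The adjusted p-values of these 3 genes at 4 h were 4.15e-08, 6.78e-09 and 1.89e-08 in edgeR's quasi-likelihood test. The median of the 6 genes at 4 h was -1.23. For *P2rx4*, *P2rx7* and *P2ry6* the log2 fold changes at 4 h were -0.35, -0.72 and -0.53, and the difference from these 3 genes was not tested.

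The list of ATP and cAMP release holds pannexins, a connexin, subunits of volume-regulated channels and exporters. Of its 9 genes tested, 4 passed at 1 h, each higher, against 10% of all genes that were higher, and 9 at 4 h, 7 higher and 2 lower, against 19.7% and 20.4% of all genes. *Gja1*, which encodes connexin 43, went from 77.4 ± 4.80 normalized counts (SD, n = 4) to 345 ± 64.6 at 1 h and 391 ± 90.4 at 4 h, with log2 fold changes of 2.16 and 2.34. *Lrrc8d* went from 1133 ± 61.6 to 3405 ± 291 and 3630 ± 171 (log2 fold changes 1.59 and 1.68), and *Lrrc8c* had a log2 fold change of 0.59 at 1 h. *Abcc5*, an exporter of cyclic nucleotides, fell from 2390 ± 223 to 1305 ± 75.1 at 4 h (-0.87). The list median was 0.28 at 1 h and 0.48 at 4 h on the log2 scale.

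Of the other ectonucleotidases, 5 of 11 genes were tested, 0 passed at 1 h and 1 at 4 h, against 20.1% and 40% of all genes: *Enpp1*, whose product splits ATP into AMP and pyrophosphate, fell from 415 ± 58.5 to 229 ± 27.5 normalized counts (SD, n = 4; log2 fold change -0.86). The counts of *Entpd2*, *Entpd3* and *Entpd8*, which encode further surface enzymes that act on ATP, were at most 6 in every library. Of the 8 intracellular ENTPDases and 5′-nucleotidases tested, 2 were higher at 1 h, *Entpd7* (log2 fold change 1.47) and *Entpd6* (0.78). At 4 h, 1 was higher, *Entpd7* (log2 fold change 1.05), and 3 were lower, among them *Nt5c2* (-0.60) and *Nt5c* (-0.48), with 10% of all genes higher at 1 h and 19.7% higher and 20.4% lower at 4 h.

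For nucleoside transport, 1 of the 4 genes tested was lower at 1 h, *Slc29a3* (log2 fold change -0.44), and 2 were lower at 4 h, against 10.1% and 20.4% of all genes. These were *Slc28a2*, a concentrative transporter of purine nucleosides (523 ± 49.7 to 279 ± 33.2 normalized counts, SD, n = 4; -0.90), and *Slc29a1*, which encodes the equilibrative transporter ENT1 (1486 ± 223 to 829 ± 103; -0.84). In purine salvage and breakdown, 2 of 14 genes passed at 1 h, both lower (*Ampd2*, -0.32, and *Ampd3*, -0.25), and 6 at 4 h, 2 higher and 4 lower. These are 14.3% and 42.9% of the list, against 20.1% and 40% of all genes. The largest were *Gda*, which encodes guanine deaminase and rose from 688 ± 57.1 to 3077 ± 612 normalized counts at 4 h (2.16), *Hprt*, which salvages hypoxanthine and guanine and fell from 2984 ± 265 to 1534 ± 74.4 (-0.96), and *Dguok* (-0.69). Of the 6 adenylate kinases tested, 4 passed at 4 h (40% of all genes), *Ak4* higher (1.75, from 12.0 ± 5.04 to 41.3 ± 15.8 normalized counts; it passed the filter on low counts only with treated libraries included, and was also called without the filter, at 1.76) and 3 lower, among them *Ak8* (-0.97). The call of *Ampd3* at 1 h was lost without untreated mouse 1 or 3 or without mouse 2 or 4 at 1 h.

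**Figure D4:**
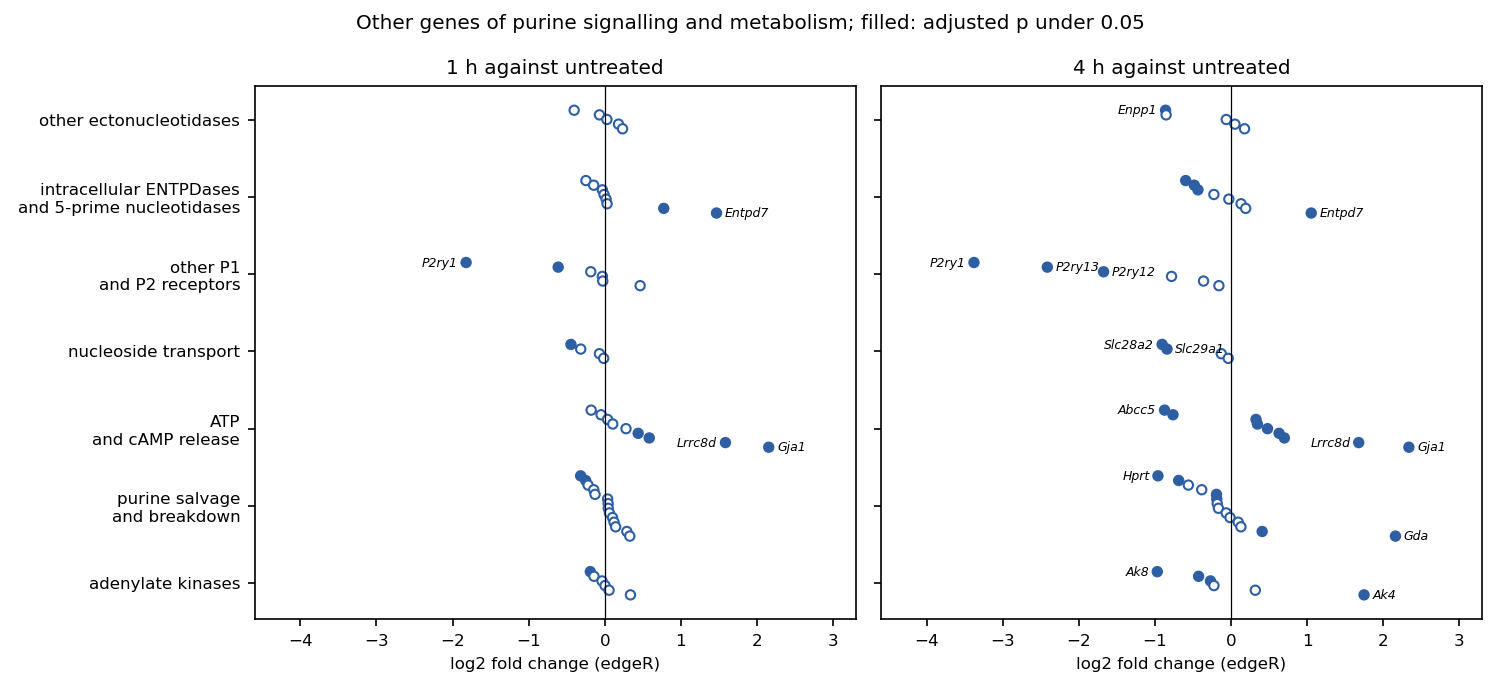
Log2 fold changes from the edgeR fit (x axis) of the 52 tested genes in 7 further lists of purine signaling and metabolism (y axis), at 1 h (left) and 4 h (right) against untreated BMDMs; each point is a gene, filled where the adjusted p was under 0.05, and gene names mark filled points beyond 0.8 in either direction among those named in the text. At 4 h *P2ry1*, *P2ry13* and *P2ry12* lie at -3.38, -2.41 and -1.67, and *Gja1*, *Gda* and *Lrrc8d* lie above 1.6.

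The total count per library was 14580533 to 24153284. All 7 macrophage markers were expressed, and their summed level was 37454 to 39413 CPM (counts scaled to a fixed library total) in untreated libraries, 33675 to 39831 at 1 h and 31910 to 36516 at 4 h, where 2 of the 7 were higher and 4 lower, with *Mertk* at a log2 fold change of -1.51. At 1 h, 1 was lower, *Mertk* (-0.20, adjusted p = 0.0153 in edgeR's quasi-likelihood test). Of all genes tested, 10% were higher and 10.1% lower at 1 h, and 19.7% higher and 20.4% lower at 4 h. In bulk RNA, fewer cells of a type and less RNA per cell cannot be told apart. CD73 is also found on stromal and endothelial cells, so their markers are given beside *Nt5e*. The 7 stromal markers, 5 of them tested, summed to 159 to 200 CPM in untreated libraries, 181 to 193 at 1 h and 130 to 172 at 4 h, and at 4 h 0 were higher and 1 lower. The 4 endothelial markers summed to 3.46 to 7.27, 5.96 to 10.3 and 17.99 to 22.4 CPM. Of them *Cdh5*, *Pecam1* and *Kdr* were tested, 0 passed at 1 h, with log2 fold changes of 0.85, -0.13 and 0.80, and 3 were higher at 4 h. *Pecam1* had 12 to 30 raw counts in untreated libraries, 12 to 30 at 1 h and 150 to 241 at 4 h, *Cdh5* had 1 to 8, 6 to 12 and 19 to 32, and *Tek* had at most 3 counts in every library. *Cdh5* passed the filter on low counts only with treated libraries included, where it is higher, so its call is not independent of that level. The part of endothelial cells in the level of *Nt5e* was not tested. The T cell, B cell, neutrophil and dendritic cell lists held 1, 1, 4 and 1 tested genes, and 0 of them passed at either time. *Cd8a* had 0 counts in all libraries.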

How the data were processed

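Stranded mRNA libraries of 12 BMDM cultures were sequenced as single-end reads of 50 bases. The authors mapped them with TopHat2 2.0.11 to GRCm38, counted reads per gene with HTSeq 0.8.0 (versions per the labels) and deposited raw counts, without normalization. The strand option and annotation release are not given in the sources used here. The table has 0 entries that name no gene, and 53274 of 53379 identifiers matched GENCODE M21, which gave symbols, coordinates and exon lengths. Total counts were 14580533 to 24153284 per library.

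Counts were filtered with filterByExpr (minimum count 10), scaled by TMM and fitted with edgeR 4.0.16 in R 4.3.3, with 1 mean per group over the 12 libraries and no covariate. The quasi-likelihood test was run for each contrast, with Benjamini-Hochberg adjustment and 0.05 as threshold. The SE is the log2 fold change divided by the square root of the F statistic. The script was tested on simulated data. RPKM uses merged exon length. Ratios of Poisson rates have exact 95% intervals. Groups came from the sample titles, which also name the mouse: same-mouse libraries deviated together from their group means (r = 0.290 to 0.561 over 12 pairs, other pairs -0.304 to 0.0912). Replicates differed beyond counting noise (chi-square per degree of freedom 9.38 to 19.5).

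Named genes were the 10 purinergic genes, up to 3 of the largest called changes per further list at 1 h and at 4 h with 1 direction in all 4 mice, the 5 genes most like *Nt5e*, and genes overlapping the 10. *Adora1*, *Entpd2*, *Entpd3* and *Entpd8* of the further lists were added for their low counts. For 1 gene of the further lists, results are left out. The genes and lists were chosen with earlier results of these data known, and the motifs after seeing them. Promoters are RefSeq's, with entries for 8 of the 10 genes. Alternatives were DESeq2 1.42.0, limma-voom (limma 3.58.1), RLE scaling, scaling by library size, no filter, a mean count of at least 50, a block for the mouse, a fit of just the 2 groups in question, 0.01 as threshold, the longest transcript for RPKM, and each library left out. Figures used matplotlib 3.10.9.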

Additional observations from a re-analysis of the deposited data

Results flagged for a closer look

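*Adora2b* at 1 h had 1 library apart from the others: mouse 3 had 861 normalized counts against 1004 to 1023 in the other 3 mice, a gap of 0.882 of the group's range. *P2rx4* at 1 h had mouse 2 apart, with 10525 normalized counts against 9360 to 9493, a gap of 0.886 of the range. Among 30 groups of 4 libraries examined, chance alone sets about 1 in 20 apart in this way, and here there were 2.

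Between 1 h and 4 h of fenoterol the level differed in 5 of the 8 genes, against 38.5% of all genes tested, by edgeR's quasi-likelihood test. There was a single untreated group. A change with time in culture therefore cannot be told apart from a changing effect of fenoterol. The difference was 0.19 on the log2 scale for *Entpd1* (adjusted p = 0.0295), -0.76 for *Adora2b* (adjusted p = 4.30e-05), 1.49 for *Adora3* (adjusted p = 0.00138; the gene passed the filter on low counts only with treated libraries included, and had an adjusted p of 0.000918 without the filter), -0.34 for *P2rx4* (adjusted p = 0.000163) and -0.46 for *P2rx7* (adjusted p = 8.52e-05). That of *Entpd1* was no longer called with only the 2 groups compared (adjusted p = 0.0601).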

How the results depend on the processing

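Of the counts of genes called, 1 moved by over 1.5 times: at an adjusted p under 0.01, 2 of the 8 purinergic genes other than *Nt5e* passed at 1 h, in place of 4. Over the alternatives 2 to 4 passed at 1 h, 5 to 7 at 4 h and 4 to 5 between the time points. With the mouse as a replicate block, 4, 7 and 5 passed, and 15, 34 and 31 genes of the further lists, in place of 12, 29 and 27, while the share called among all genes went from 20.1%, 40% and 38.5% to 27.0%, 47.4% and 46.6%; among the 8 purinergic genes the block changed no call other than that of *Ada* at 4 h. Leaving out 1 library gave 3 to 4, 6 to 7 and 4 to 5 calls, and 10 to 12, 25 to 30 and 24 to 28 in the further lists. Scaling by library size shifted the median of all genes by at most 0.09 on the log2 scale.

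Signs changed only for log2 fold changes that did not pass the test. Over the libraries left out, *P2rx4* at 1 h ranged from -0.051 to 0.017, *Ada* at 1 h from -0.31 to 0.047, *Adk* at 1 h from -0.14 to 0.014, *Adk* at 4 h from -0.087 to 0.097, *Adk* between the time points from -0.017 to 0.16, and *P2ry6* between the time points from -0.074 to 0.040; *P2ry6* was 0.076 there with scaling by library size only, and the cause was not tested. *Entpd1* between the time points lost its call without mouse 1, 3 or 4 at 1 h or mouse 2 or 3 at 4 h (adjusted p = 0.0531 to 0.131). Over the 3 comparisons, the genes named from the further lists had 51 calls, and 6 were lost under at least 1 alternative, among them *Ampd3* at 1 h and at 4 h, *Ampd2* at 4 h and *Lrrc8c* between the time points. Counts near 0 limit *Adora2a* and the untreated level of *Nt5e*, so that their folds are imprecise at this depth.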
